A study of Homo sapiens with 26 samples.

Results

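The genes described here are the nuclear-encoded subunits of respiratory chain complexes I to IV in a human breast cancer cell line. They were chosen by symbol alone, as every row of the expression table whose name has the form of a complex I (NDUFA, NDUFB, NDUFC, NDUFS or NDUFV and a number), complex II (SDHA to SDHD), complex III (UQCR) or complex IV (COX4 to COX8) subunit. The rule took 66 of 33562 rows, of which 37 belong to complex I, 4 to complex II, 11 to complex III and 14 to complex IV. Of these, 61 reached 1 RPKM (the read count scaled to transcript length and to the library's mapped reads) in at least 2 libraries and were tested. The 5 that did not were 2 pseudogene rows, UQCRBP1 and UQCRHP1, and the tissue-restricted subunits COX7A1, COX6B2 and COX8C. NDUFA4 was named as a complex I subunit and is counted there by its symbol, although it is now known to associate with complex IV.

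The respiratory chain passes electrons from NADH through complex I, and from succinate through complex II, to ubiquinone, then through complex III and cytochrome c to oxygen at complex IV. Complexes I, III and IV pump protons, and ATP synthase (complex V) uses the gradient. Complexes I, III and IV combine nuclear subunits with a few encoded by mitochondrial DNA, while complex II is wholly nuclear-encoded; 0 of the 13 mitochondrially encoded protein genes have a row in the table, so those partners were not analysed here.

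RNA from MDA-MB-231Luc cells, a luciferase derivative of the triple-negative line MDA-MB-231, was sequenced as poly(A) mRNA in 26 libraries from 9 lines. The 6 AURKA lines are single clones made with a guide against AURKA, the gene of the mitotic kinase Aurora A, and carry an AURKA cDNA in the doxycycline-inducible mRFP vector pLUTZ. NLS-AURKA clones 2 and 3 carry the cDNA labelled MUT1 with a nuclear localisation signal and were made with the guide sgAURKA1. NES-AURKA clones 1 and 2 carry the cDNA labelled MUT2 with a nuclear export signal, and WT-AURKA clones 1 and 2 carry MUT2 with neither signal; all 4 were made with sgAURKA2. The 3 control lines, NLS-Empty, NES-Empty and Empty, carry the vector without the cDNA and the control guide sgCon. All 9 lines were grown in doxycycline. The AURKA lines were at passages 32 to 35 and the control lines at passages 19 to 20, so the cDNA, the guide, the passage and the cloning of cells cannot be told apart, and the nuclear signal cannot be told apart from its guide and cDNA. Each line has 1 library in a set lettered A to H and 2 in a set lettered I to Z, except WT-AURKA clone 2, which has none in A to H; what the letters stand for, and whether libraries of a line are separate cultures, is not given in the labels, so p-values over libraries measure only the spread between these samples.

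As context for the values below, the 250 bases before the annotated start of 5 members are shown, in GRCh38.p14 as annotated by RefSeq, 5′ to 3′ on the gene's strand. COX7B had the largest difference among the members called between AURKA and control lines, COX7B2 is its paralogue and was nearly off in 1 clone, SDHB and NDUFS6 are complex II and I subunits lower in AURKA lines, and UQCR11 was lower in both NLS-AURKA clones than in the other constructs. Capitals mark the core letters of 3 factors known to act on promoters of this pathway, read on either strand: CGCATGC for NRF1, CCGGAAG for GABPA (an ETS factor) and AAGATGG for YY1.
COX7B (chrX:77899218-77899467, plus strand): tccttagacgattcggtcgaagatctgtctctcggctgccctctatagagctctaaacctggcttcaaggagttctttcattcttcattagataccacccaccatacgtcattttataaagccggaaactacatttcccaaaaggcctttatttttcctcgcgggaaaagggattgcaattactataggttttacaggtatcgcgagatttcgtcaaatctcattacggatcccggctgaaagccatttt
COX7B2 (chr4:46909246-46909495, minus strand): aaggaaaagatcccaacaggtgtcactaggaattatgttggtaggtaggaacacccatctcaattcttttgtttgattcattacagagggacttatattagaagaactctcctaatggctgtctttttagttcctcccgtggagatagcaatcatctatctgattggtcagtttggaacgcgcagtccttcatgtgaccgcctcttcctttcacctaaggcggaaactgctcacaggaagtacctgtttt
SDHB (chr1:17054033-17054282, minus strand): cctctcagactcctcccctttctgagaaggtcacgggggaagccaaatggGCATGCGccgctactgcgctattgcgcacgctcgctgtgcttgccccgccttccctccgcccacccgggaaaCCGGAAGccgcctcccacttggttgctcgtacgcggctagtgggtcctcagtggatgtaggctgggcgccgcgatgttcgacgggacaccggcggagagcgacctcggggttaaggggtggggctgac
UQCR11 (chr19:1605463-1605712, minus strand): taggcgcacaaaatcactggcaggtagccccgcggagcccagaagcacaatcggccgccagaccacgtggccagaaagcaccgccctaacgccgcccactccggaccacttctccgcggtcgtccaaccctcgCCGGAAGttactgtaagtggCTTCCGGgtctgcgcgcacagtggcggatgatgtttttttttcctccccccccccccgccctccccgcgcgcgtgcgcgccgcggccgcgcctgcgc
NDUFS6 (chr5:1801157-1801406, plus strand): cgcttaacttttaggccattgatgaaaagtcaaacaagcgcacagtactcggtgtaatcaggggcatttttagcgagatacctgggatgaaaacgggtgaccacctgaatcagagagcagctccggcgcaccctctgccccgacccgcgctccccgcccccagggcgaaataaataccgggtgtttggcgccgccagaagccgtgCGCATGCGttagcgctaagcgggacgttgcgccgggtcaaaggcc
Promoters of 54 of the 66 members were matched, each read over 300 bases from 250 before to 50 after the start. The NRF1 core occurred in 9 of them (16.7%), against 4.13% of all 27305 promoters of that length. The GABPA core occurred in 15 (27.8%), against 10.7% of all promoters, and the YY1 core in 11 (20.4%), against 6.06%. Across the 54 promoters 28 held at least 1 of the 3 cores and SDHB alone held all 3, the YY1 core lying in the 50 bases after the start that are not printed. These are matches of letters, which describe the sequences and not the binding of a factor.

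The members were broadly expressed, and their levels differed far more between subunits than between lines. Taking the mean of the 9 lines for each passed member, the median level was 20.0 RPKM in complex I, 23.5 in complex II, 34.5 in complex III and 55.3 in complex IV. RPKM is scaled to transcript length, so levels can be compared between genes, within the limits of the annotation used. The coefficient of variation of a member over the 9 lines had a median of 14.9%, and its highest line was a median of 1.57 times its lowest. By complex that median ratio was 1.58 in I, 1.75 in II, 1.37 in III and 1.43 in IV. These line values mix the letter sets, as WT-AURKA clone 2 has no A to H library. In I to Z libraries alone the median ratio was 1.63. There the highest line exceeded the lowest by more than 2 times for 13 of the 61 members, a count not taken over all tested genes.

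In complex I the highest level was that of NDUFS5, an accessory subunit of the membrane arm, at 169.9 RPKM, followed by the membrane-arm subunits NDUFB7 at 87.5 and NDUFA1 at 62.5. The iron-sulfur core subunit NDUFS7, at 3.92 RPKM, and the small NADH-module subunit NDUFV3, at 3.04, were the lowest. In complex II the membrane anchor SDHD had 43.5 RPKM, the iron-sulfur subunit SDHB 34.5, the flavoprotein SDHA 12.5 and the other anchor SDHC 9.80. Subunits of 1 complex thus did not have equal RPKM values.

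In complex III the hinge protein UQCRH had 99.7 RPKM, while UQCRHL, a near-identical retrogene copy, had 0.998 and its reads cannot be told with certainty from those of UQCRH. The iron-sulfur subunit UQCRFS1 had 25.2 RPKM and the core proteins UQCRC1 and UQCRC2 had 35.6 and 16.5. In complex IV COX8A, a small subunit, was the highest of all members, at a mean of 235.4 RPKM. Its line means lay between 181.7 and 260.1 RPKM, the highest being WT-AURKA clone 2, which has no A to H library. In I to Z libraries alone they lay between 236.5 and 326.4 RPKM, with 260.1 in WT-AURKA clone 2. COX6A1 followed at 116.9 RPKM, and COX7B at 20.3, COX6C at 20.1 and COX7B2 at 12.1 were the lowest of the 11 that passed. The levels lay on a narrow band across lines for most members, and the widest exception was COX7B2. Pseudogenes named for them are annotated for 35 of the 61 tested members, up to 18 for one gene, and how the submitters' counting shared such reads is not given in the sources used here.

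**Figure D1:**
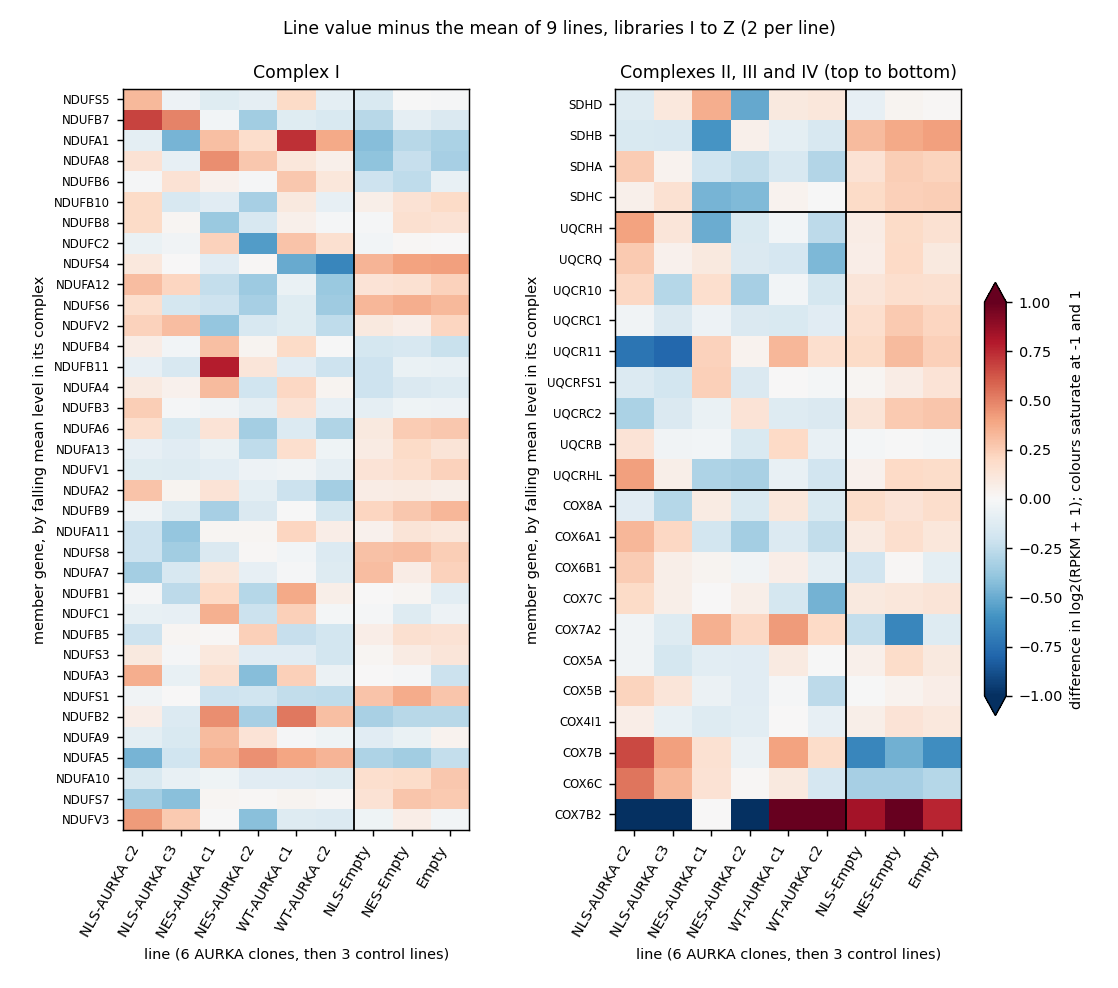
Value of the tested members in each of the 9 lines, as the mean log2(RPKM + 1) of the line's 2 libraries in I to Z minus the mean over the 9 lines, by complex, with the 6 AURKA lines left of the 3 control lines. COX7B2 has the strongest colours, and UQCR11 in NLS-AURKA clones, SDHC in NES-AURKA clones and COX7B in control lines are each below their mean.

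Library depth, estimated from the value that 1 read is worth, was 12.3 to 20.4 M reads, with a median of 18.6 M in A to H and 14.8 M in I to Z. No 2 libraries held identical values. AURKA itself had 38.4 to 104.6 RPKM in NLS-AURKA libraries, 15.5 to 37.0 in NES-AURKA, 12.7 to 84.1 in WT-AURKA and 34.0 to 69.0 in control libraries; the 1 AURKA row sums the cDNA and the cell's own gene, so it does not check the labels. The WT-AURKA value of 84.1 is library D of clone 1, whose other libraries had 14.1 and 12.8. Library X of NLS-AURKA clone 2 was the highest of all 26 for 31 of the 61 members, and library F of NES-AURKA clone 1 was the lowest for 25. The 61 members summed to 3532 RPKM in library X. Such counts were not taken over all tested genes. Of the mesenchymal-like breast cancer markers, VIM had 234 to 1059 RPKM in AURKA libraries and 236 to 375 in control libraries, and MSN was higher in AURKA lines (log2 difference 1.24, adjusted p = 0.000699). Of the 5 markers listed 2 were higher and 0 lower, where 8.85% of all tested genes were higher and 10.4% lower. Median RPKM in AURKA and control libraries was 194 and 124 for CAV1, 49.3 and 50.5 for CD44, and 37.2 and 35.4 for EGFR. ESR1 and PGR stayed at or below 0.0220 RPKM, and the leukocyte marker PTPRC, the endothelial marker CDH5 and the fibroblast marker DCN at or below 0.128, in all 26 libraries. ERBB2, also listed as a receptor low in this line, had 2.24 to 5.06 RPKM in AURKA libraries and 3.06 to 4.75 in control libraries. The fibroblast marker COL1A1 reached 0.759 RPKM in AURKA libraries and 0.397 in control libraries, and COL1A2 reached 0.269 and 0.0430. The leukocyte markers CD3E and ITGAM stayed at or below 0.0252 RPKM. CD68, a lysosomal protein used as a macrophage marker, was an exception, at 28.4 to 70.7 RPKM in AURKA libraries and 27.2 to 50.2 in control libraries; it was higher in NLS-AURKA than in NES-AURKA (log2 difference 0.42, adjusted p = 0.0118) and WT-AURKA (0.95, adjusted p = 0.000236), and in NES-AURKA than in WT-AURKA (0.53, adjusted p = 0.0244). The endothelial marker PECAM1 had 0.121 to 1.23 RPKM in AURKA libraries and 0.0444 to 0.164 in control libraries and was not tested. Of the fibroblast markers LUM had 0 to 0.491 RPKM in AURKA libraries and 0.164 to 1.34 in control libraries. It passed the filter of 1 RPKM only through control libraries, so no test is given for it. The part of CD68, PECAM1 and LUM in the results was not tested. In bulk RNA fewer cells of a type and less RNA per cell cannot be told apart.

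The comparison of the 6 AURKA lines with the 3 control lines asks which subunits differ with the AURKA guide, cDNA, passage and cloning of cells combined. Differences were tested with limma on line means of log2(RPKM + 1), with p-values adjusted over 12589 genes, and folds on this scale understate those of low genes. Of the 61 members 4 were higher and 7 lower at an adjusted p under 0.05, where 8.85% of all tested genes were higher and 10.4% lower, so the members were called about as often as other genes. The 4 higher were COX7B, COX6C, NDUFA8 and NDUFA4. The lower members included the complex I subunits NDUFS1, NDUFS4, NDUFS6, NDUFS8 and NDUFA10, and SDHB of complex II. No complex III member passed. The median log2 difference was -0.04 over the members and -0.02 over all tested genes, and 20 members had an unadjusted p under 0.05. Without library D 16 of the 61 members and 4091 of the 12589 tested genes had an unadjusted p under 0.05.

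COX7B, a small nuclear-encoded subunit of complex IV, had line means of 29.3 and 26.4 RPKM in the NLS-AURKA clones, 19.2 and 19.2 in the NES-AURKA clones and 26.7 and 25.3 in the WT-AURKA clones, against 11.9 in NLS-Empty, 13.0 in NES-Empty and 12.04 in Empty. In I to Z its 12 AURKA libraries had 21.0 to 44.5 RPKM, with a median of 26.3, and its 6 control libraries 13.3 to 16.2, with a median of 14.4. The groups did not overlap in I to Z, whereas in A to H the AURKA library F, at 8.08 RPKM, lay within the control range of 7.70 to 8.18. The log2 difference was 0.90 (SE 0.149, adjusted p = 0.00351). It was the 1 member still called when NLS-Empty was left out, and it was called without each other line too.

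COX6C, another small complex IV subunit, averaged 22.4 ± 2.81 RPKM in AURKA lines (SD, n = 6) and 15.5 ± 0.236 in control lines (SD, n = 3), a log2 difference of 0.48 (SE 0.0997, adjusted p = 0.00915). NDUFA8, an accessory subunit of the complex I membrane arm, averaged 49.1 ± 4.68 RPKM in AURKA lines and 34.4 ± 1.84 in control lines, a log2 difference of 0.49 (SE 0.101, adjusted p = 0.00906). For both genes the line means did not overlap, but libraries of the AURKA and control groups overlapped within I to Z. NDUFA4 averaged 25.8 ± 2.83 RPKM in AURKA lines and 20.1 ± 0.375 in control lines (log2 difference 0.38, adjusted p = 0.0385), and was no longer called in I to Z libraries alone.

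Among the lower members, NDUFS1, the large iron-sulfur subunit of the NADH-oxidising module, had 8.45 and 8.57 RPKM in the NLS-AURKA clones, 7.54 and 7.46 in the NES-AURKA clones and 7.35 and 6.39 in the WT-AURKA clones, against 10.4 in NLS-Empty, 10.97 in NES-Empty and 10.3 in Empty. In I to Z the AURKA libraries had 6.17 to 8.33 RPKM, median 6.66, and the control libraries 9.39 to 10.97, median 9.92; in A to H the AURKA libraries had 8.98 to 10.1, median 9.31, and the control libraries 11.4 to 12.05, median 11.5. The AURKA and control libraries thus did not overlap within either letter set. The log2 difference was -0.43 (SE 0.0959, adjusted p = 0.0128).

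NDUFS4, an accessory subunit needed to build the NADH module, averaged 29.7 ± 5.01 RPKM in AURKA lines and 41.9 ± 1.16 in control lines (log2 difference -0.48, SE 0.136, adjusted p = 0.0337). NDUFS6, a zinc-binding subunit of the same module, averaged 29.1 ± 2.52 RPKM in AURKA lines and 39.6 ± 0.400 in control lines (-0.44, SE 0.0924, adjusted p = 0.00946). Both had a wider spread between the AURKA clones than between the control lines. NDUFS8, an iron-sulfur core subunit, differed by -0.35 on the log2 scale (adjusted p = 0.0258) and NDUFA10, of the membrane arm, by -0.27 (adjusted p = 0.0267).

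SDHB, which carries the iron-sulfur clusters of succinate dehydrogenase, had 25 to 41.3 RPKM, median 34.9, in the I to Z libraries of AURKA lines, against 48.0 to 53.1, median 50.003, in those of control lines. The groups did not overlap in I to Z; in A to H the top AURKA value, 26.9 RPKM in library A, exceeded the lowest control value of 26.4. Over lines SDHB averaged 30.5 ± 4.87 RPKM in AURKA lines and 42.6 ± 0.781 in control lines (log2 difference -0.46, SE 0.145, adjusted p = 0.0492), close to the threshold. The call was lost with median-ratio scaling (-0.44, adjusted p = 0.0549), in A to H libraries alone, without library D or X, and without any 1 of the 3 control lines, WT-AURKA clone 1 or either NLS-AURKA clone. SDHA, SDHC and SDHD, the other subunits of complex II, did not pass.

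These calls rest on a small set of control lines. Left out 1 at a time, the control lines left 1 member called without NLS-Empty, 3 without Empty and 4 without NES-Empty. Leaving out WT-AURKA clone 1 left 6. All tested genes lost calls as well. The shares higher and lower were 3.33% and 3.94% without NLS-Empty, 3.8% and 4.4% without Empty, and 3.44% and 3.98% without NES-Empty. Without WT-AURKA clone 1 they were 6.59% and 7.79%. Without library D there were 7 members called, and in A to H libraries alone 1, NDUFA7, lower in AURKA lines. Of all tested genes 8.06% were higher and 9.06% lower without library D, and 5.5% and 6.06% in A to H alone. With a term for the letter set, 15 members were called, among them all 11 called without it. The other 4, NDUFA7, NDUFB9, NDUFV1 and UQCRC1, were lower in AURKA lines. Of all tested genes 9.53% were higher and 11.9% lower with the term.

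**Figure D2:**
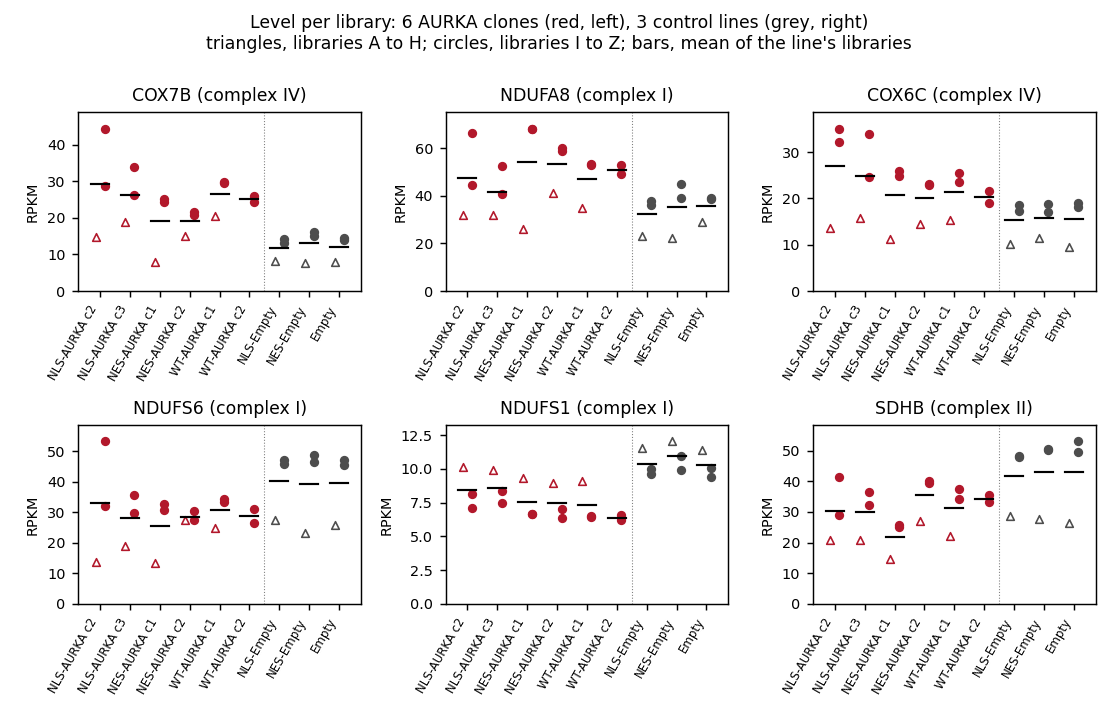
RPKM in each library for COX7B, NDUFA8, COX6C, NDUFS6, NDUFS1 and SDHB, with AURKA lines (red) left of control lines (grey); triangles are A to H libraries, circles are I to Z libraries and bars are line means. In I to Z, COX7B, NDUFS1 and SDHB show no overlap between AURKA and control libraries, while library X at 53.2 RPKM puts NDUFS6 in an overlap.

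The 3 AURKA constructs were then compared with one another, 2 clones each, in a fit on line means that also held the control lines. NLS-AURKA clones differed from NES-AURKA clones at 12 members that were higher and 8 that were lower, against 19.1% of all tested genes higher and 14.1% lower, so the members were again called about as often as other genes. By complex the counts of higher and lower members were 5 and 6 in I, 2 and 0 in II, 1 and 1 in III, and 4 and 1 in IV. The higher group included NDUFV2 and NDUFV3 of the NADH module, NDUFA12, NDUFB7 and UQCRHL, complex II subunits SDHA and SDHC, and complex IV subunits COX5B, COX6A1, COX6C and COX7B. The lower group held UQCR11, COX7A2 and 6 complex I subunits, NDUFA1, NDUFA5, NDUFA9, NDUFA11, NDUFB11 and NDUFS7. The calls of SDHA, COX6C and COX7A2 were lost with a letter-set term, and those of SDHA and COX5B with median-ratio scaling.

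UQCR11, a small subunit of complex III, whose promoter is printed above, stood lowest in NLS-AURKA. In A to H and then I to Z it had 10.5, 18.5 and 30.2 RPKM in NLS-AURKA clone 2 and 10.9, 21.0 and 24.8 in clone 3, against 18.7, 47.2 and 47.1 in NES-AURKA clone 1 and 19.2, 41.8 and 40.2 in clone 2. WT-AURKA clone 1 had 22.5, 50.8 and 50.4 RPKM, and WT-AURKA clone 2 had 45.2 and 44.9 in I to Z. Within each letter set every NLS-AURKA library lay below every NES-AURKA and WT-AURKA library. The NLS-AURKA minus NES-AURKA log2 difference was -0.85 (SE 0.102, adjusted p = 0.00048), and the NLS-AURKA minus WT-AURKA difference was -1.17 (SE 0.102, adjusted p = 0.000106), or -0.97 with a letter-set term.

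NDUFA5, a subunit of the ubiquinone-side module of complex I, averaged 3.47 ± 0.421 RPKM in NLS-AURKA, 6.04 ± 0.463 in NES-AURKA and 6.55 ± 0.427 in WT-AURKA clones (SD, n = 2 each). The NLS-AURKA minus NES-AURKA log2 difference was -0.67 (SE 0.102, adjusted p = 0.00145). COX7A2, the widely expressed form of a complex IV subunit that also has a muscle form, averaged 55.7 ± 1.49 RPKM in NLS-AURKA, 73.7 ± 3.81 in NES-AURKA and 85.4 ± 1.36 in WT-AURKA clones. The WT-AURKA mean and SD mix letter sets, as WT-AURKA clone 2 has no A to H library. In I to Z alone COX7A2 had 75.7 and 69.2 RPKM in the NLS-AURKA clones, 96.1 and 86.9 in the NES-AURKA clones and 101 and 86.4 in the WT-AURKA clones. Its log2 difference between NLS-AURKA and NES-AURKA was -0.49 (adjusted p = 0.0399).

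On the higher side, NDUFV2, an iron-sulfur core subunit of the NADH module, had 27.3, 41.9 and 40.1 RPKM in NLS-AURKA clone 2 and 27.1, 40.8 and 46.2 in clone 3, against 16.7, 27.7 and 25.3 in NES-AURKA clone 1 and 18.04, 31.8 and 30.6 in clone 2. The libraries of the constructs did not overlap in either letter set, and the log2 difference was 0.57 (adjusted p = 0.00275). NDUFV3 of the same module averaged 4.08 ± 0.226 RPKM in NLS-AURKA and 2.45 ± 0.482 in NES-AURKA clones, a log2 difference of 0.56. NDUFA12, which sits at the junction of the peripheral-arm modules, averaged 39.6 ± 0.236 RPKM in NLS-AURKA and 26.7 ± 0.316 in NES-AURKA clones, a log2 difference of 0.53. In A to H libraries alone 3 members were called, NDUFV2 and NDUFV3 higher and UQCR11 lower. Of all tested genes 5.98% were then higher and 1.85% lower.

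In complex II, the membrane anchor SDHC averaged 10.2 ± 0.360 RPKM in NLS-AURKA, 6.87 ± 0.0461 in NES-AURKA and 10.3 ± 0.477 in WT-AURKA clones, so the NES-AURKA clones were the low ones. The log2 difference was 0.50 between NLS-AURKA and NES-AURKA (SE 0.0811, adjusted p = 0.00196) and -0.53 between NES-AURKA and WT-AURKA (adjusted p = 0.0134).

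Some of the NLS-AURKA calls were lost when library X was left out. NDUFB7, of the membrane arm, had 42.5, 112 and 247 RPKM in NLS-AURKA clone 2 and 55.7, 129 and 167 in clone 3, against 33.2, 95.5 and 108 in NES-AURKA clone 1 and 38.5, 85.0 and 77.4 in clone 2. The value of 247 is library X. Without it the calls of NDUFB7 (log2 difference 0.66), COX7B (0.51), SDHA, UQCRHL, COX5B, COX6A1 and COX6C between NLS-AURKA and NES-AURKA were lost. No complex III or IV member was then called higher, but 1 and 2 were with a letter-set term as well. Leaving out X also gives the A to H library more weight in that clone's mean, and the part of each in the losses was not tested. Without library X 5 members were higher and 10 lower in NLS-AURKA than in NES-AURKA, where 18.1% of all tested genes were higher and 12.7% lower; with a letter-set term as well, 9 members were higher and 11 lower, against 21.2% and 14.1% of all tested genes. Without NLS-AURKA clone 2, or without clone 3, 12 members were called. Of all tested genes 10.6% were then higher and 7.32% lower without clone 2, and 11.7% and 8.25% without clone 3.

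Against WT-AURKA, NLS-AURKA clones had 5 members higher and 16 lower, where 18.7% of all tested genes were higher and 17.4% lower. That balance did not hold across treatments of the letter sets, of which WT-AURKA clone 2 lacks A to H: with a letter-set term 10 were higher and 7 lower, against 19.7% and 17% of all tested genes, and in I to Z libraries alone 14 and 5, against 20.4% and 18.1%. Called both with and without the term were 12 members, the higher NDUFS1, NDUFS4, NDUFV2, NDUFV3 and NDUFA12 and the lower NDUFA1, NDUFA5, NDUFA11, NDUFB2, NDUFS7, UQCR11 and COX7A2. NDUFA1, a small membrane-arm subunit encoded on the X chromosome, averaged 50.1 ± 6.93 RPKM in NLS-AURKA and 94.2 ± 4.71 in WT-AURKA clones, a log2 difference of -0.95, or -0.79 with the term. In I to Z alone it had 66.8 and 50.9 RPKM in NLS-AURKA clones 2 and 3, and 116 and 90.8 in WT-AURKA clones 1 and 2. NDUFS4 differed by 0.48, or 0.61 with the term. The median log2 difference was -0.15 over the members and 0.01 over all tested genes. Without library D 3 members were higher and 29 lower, where 25% of all tested genes were higher and 23% lower. As D is the only A to H library of WT-AURKA, those counts mix the construct with the letter set. Without D but with the term the counts were 13 and 7, against 23.7% and 18.7%. Without library X 4 members were higher and 25 lower, where 18.9% of all tested genes were higher and 17% lower, and without X but with the term 6 and 9, against 19.9% and 15.6%. Leaving out NLS-AURKA clone 2 left 10 called, WT-AURKA clone 2 left 11 and NLS-AURKA clone 3 left 12. The shares of all tested genes higher and lower were then 10.4% and 9.51%, 10.8% and 10.2%, and 12.6% and 11.7%.

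Between NES-AURKA and WT-AURKA 0 members were higher and 6 lower, against 1.56% and 3.3% of all tested genes. With the letter-set term, or in I to Z libraries alone, SDHC kept its call, at a log2 difference of -0.44 with the term (adjusted p = 0.018). NDUFB2, NDUFB6, NDUFA1 and COX7B did not. Without library D 0 members were higher and 28 lower, where 8.68% of all tested genes were higher and 12.8% lower. As D is the only A to H library of WT-AURKA, those counts mix the construct with the letter set. Without D but with the term 4 members were higher and 2 lower, against 4.71% and 5.81%. Leaving out WT-AURKA clone 2 left 0 called and WT-AURKA clone 1 left 2, while leaving out NES-AURKA clone 1 gave 16 and NES-AURKA clone 2 gave 14. The shares of all tested genes higher and lower moved too. They were 0.0477% and 0.111% without WT-AURKA clone 2, and 1.71% and 1.75% without WT-AURKA clone 1. Without NES-AURKA clone 1 they were 5.96% and 13.4%, and without NES-AURKA clone 2 6.31% and 10%.

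Each construct was also set against the control line carrying the same signal, in a library-level fit with a term for the letter set, and a member was counted where both clones passed in the same direction. These comparisons use the same control libraries as the comparison of all AURKA lines, so they do not repeat it independently. Against NLS-Empty both NLS-AURKA clones had 4 members higher and 7 lower, where 15.9% of all tested genes were higher and 13.6% lower. Against NES-Empty both NES-AURKA clones had 4 higher and 8 lower, where 7.02% and 9.32% of genes were. Against Empty both WT-AURKA clones had 3 higher and 6 lower, where 10.1% and 11.5% were. These calls depend on the letter-set term: without it 0 members were called in both NLS-AURKA clones, 2 in both NES-AURKA clones and 0 in both WT-AURKA clones. Calls over all tested genes fell too. Without the term 7.47% were higher and 5.91% lower in both NLS-AURKA clones. The shares were 2.56% and 3.3% for NES-AURKA and 4.23% and 3.16% for WT-AURKA. In these fits with the term NDUFS1 was called lower in all 6 clones.

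For NLS-AURKA clones 2 and 3 the higher members were COX7B (log2 differences 1.14 and 1.08), COX6C (0.72 and 0.64), NDUFB7 (0.67 and 0.68) and NDUFV3 (0.42 and 0.32). UQCR11 differed by -0.88 and -0.90 (adjusted p = 1.77e-05 and 1.63e-05), and NDUFA7, NDUFS7, NDUFS8, SDHB, NDUFS1 and COX7B2 were the other lower members. UQCR11 had 18.8, 46.8 and 45.0 RPKM in NLS-Empty, each above every NLS-AURKA library of its letter set. Without library X, 3 members were higher and 13 lower in both clones, where 17.1% of all tested genes were higher and 13.4% lower. Leaving out library M or N of NLS-Empty left 6 or 7 members called. Of all tested genes 13.6% were then higher and 11% lower without M, and 13.5% and 11% without N.

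For NES-AURKA clones 1 and 2 the lower members included SDHC (log2 differences -0.63 and -0.62), NDUFS1 (-0.50 and -0.51), NDUFS4, NDUFV2, NDUFA12, UQCRHL and COX7B2. SDHC had 5.58, 7.67 and 7.26 RPKM in NES-AURKA clone 1 and 5.47, 7.26 and 7.98 in clone 2, against 8.19, 13.1 and 12.5 in NES-Empty. Both clones lay below NES-Empty in each letter set. The higher members were COX7A2 (1.01 and 0.94), NDUFA8 (0.54 and 0.62), NDUFA5 (0.49 and 0.63) and NDUFA9 (0.34 and 0.38). COX7A2 in NES-Empty, at a mean of 37.5 RPKM, was itself below the 51.2 of NLS-Empty and the 54.0 of Empty. The SDHB log2 difference was -0.94 in clone 1, which was called, and -0.24 in clone 2, which was not (adjusted p = 0.107); the difference between clones was not tested. Leaving out library C of NES-Empty left 7 members called, where 5.06% of all tested genes were higher and 6.35% lower.

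For WT-AURKA clones 1 and 2 against Empty the lower members included NDUFS4 (log2 differences -0.76 and -1.0), NDUFS1 (-0.45 and -0.50), SDHB (-0.42 and -0.50), NDUFV2 (-0.36 and -0.48) and NDUFA10 (-0.34 and -0.35). The higher members were COX7B (1.11 and 0.78), NDUFA1 (1.03 and 0.68) and NDUFA5 (0.71 and 0.56). NDUFA1 had 60.7, 115 and 117 RPKM in WT-AURKA clone 1 and 87.2 and 94.5 in clone 2, against 29.6, 58.5 and 53.1 in Empty. Leaving out library R of WT-AURKA clone 2 left 3 members called and leaving out library Q left 4, none of them higher. Of all tested genes 5.33% were then higher and 4.99% lower without R, and 5.54% and 7% without Q.

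COX7B2, a paralogue of COX7B known mainly from testis, varied most between lines and was not called between AURKA and control lines (log2 difference -1.07, SE 0.813, adjusted p = 0.388). In NLS-AURKA it had 3.98, 3.53 and 5.27 RPKM in clone 2 and 5.21, 4.22 and 4.34 in clone 3, against 6.87, 18.2 and 18.5 in NLS-Empty. In NES-AURKA it had 5.26, 9.75 and 10.1 RPKM in clone 1 and 0.0631, 0.0885 and 0.0826 in clone 2, against 10.3, 27.7 and 27.2 in NES-Empty. In WT-AURKA it had 10.3, 26.6 and 25.7 RPKM in clone 1 and 22.9 and 21.0 in clone 2, against 3.11, 18.3 and 16.6 in Empty. NES-AURKA clone 2 was thus the 1 line near 0, and its 3 values are each worth about 1 read, so no fold is given for it. The log2 difference from NES-Empty was -1.21 in NES-AURKA clone 1, and those from NLS-Empty were -1.46 and -1.36 in NLS-AURKA clones 2 and 3. The printed promoters of COX7B and COX7B2 held none of the 3 cores, which says only that those letters are not in the window.

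**Figure D3:**
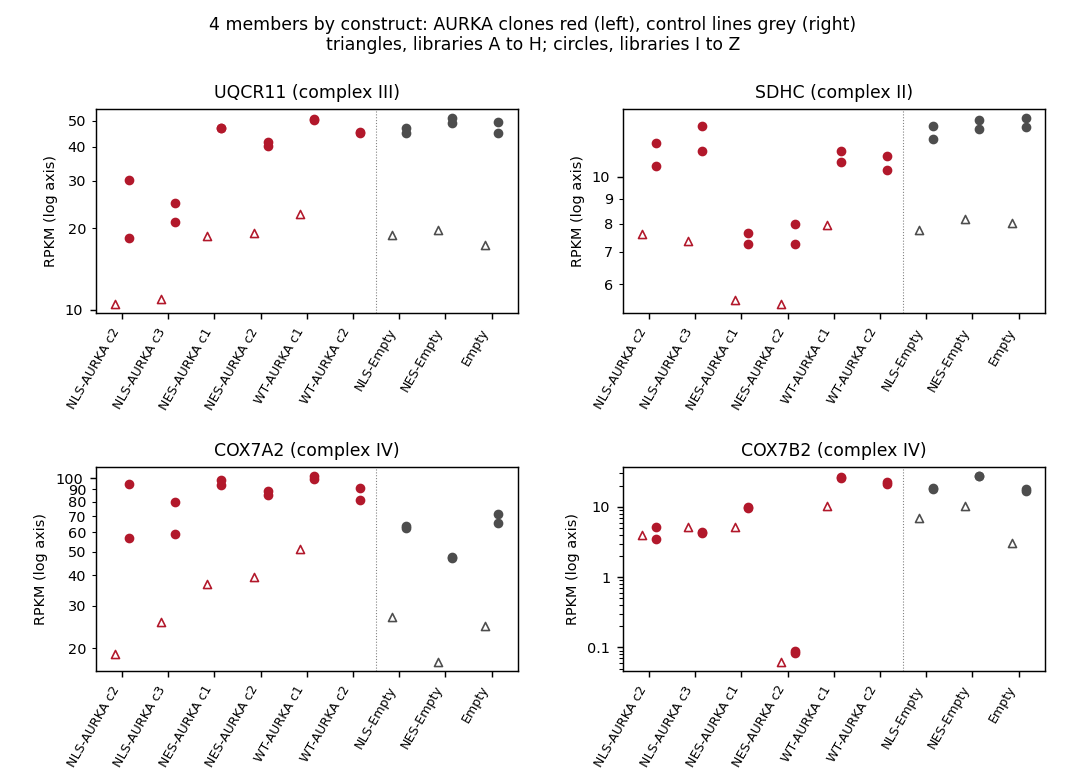
RPKM on a log axis in each library of UQCR11, SDHC, COX7A2 and COX7B2, with lines in the order NLS-AURKA, NES-AURKA, WT-AURKA and then the 3 control lines; triangles are A to H libraries and circles are I to Z libraries. UQCR11 is lowest in the NLS-AURKA clones within each letter set, SDHC is lowest in the NES-AURKA clones, and COX7B2 is under 0.1 RPKM in NES-AURKA clone 2 alone.

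The members differed most broadly between the letter sets. In the fit with line and letter set, 58 of the 61 members were lower in A to H than in I to Z libraries and 2 were higher, where 43.2% of all tested genes were lower and 30% higher. The median log2 difference was -0.89 over the members and -0.09 over all tested genes. By complex the median was -0.83 in I, -0.63 in II, -1.04 in III and -1.15 in IV. With libraries scaled by median ratios the members' median was -0.72 and the counts were again 58 and 2.

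The direction was shared by lines: 58 to 60 of the 61 members had lower values in A to H within each of the 8 lines with both sets. That count was not taken over all tested genes. The members' median by line lay between -1.18 in NES-AURKA clone 1 and -0.58 in NES-AURKA clone 2, and that of all tested genes between -0.18 and -0.02. Summed over members, complex I had 494 to 736 RPKM in A to H libraries and 1014 to 1599 in I to Z libraries. Complex II had 52.4 to 74.8 RPKM in A to H and 92.5 to 134.5 in I to Z, complex III 136 to 200 in A to H and 310 to 515 in I to Z, and complex IV 330 to 480 in A to H and 722 to 1299 in I to Z. The letter sets did not overlap in the sum of any complex.

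COX8A had 71.7 to 152 RPKM in A to H libraries and 181 to 388 in I to Z libraries, a log2 difference of -1.50 (SE 0.116). UQCRQ, a small subunit of complex III, and NDUFB7 both differed by -1.40, NDUFB8 by -1.38 and UQCRH by -1.35. The 2 members higher in A to H were NDUFS1, at 8.98 to 12.05 RPKM in A to H against 6.17 to 10.97 in I to Z (log2 difference 0.32, SE 0.0448, adjusted p = 2.2e-06), and NDUFV3 (0.16, adjusted p = 0.00579); NDUFA5, at -0.08, was not called. The letter-set difference itself was not called as different between AURKA and control lines for any member: limma called 0 of 61, against 0.175% of all tested genes, and 2 members had an unadjusted p under 0.05.

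Other values moved with the letter sets. The nuclear long RNA MALAT1 had 175 to 561 RPKM in A to H and 6.10 to 33.5 in I to Z, and a ribosomal RNA row took 10.9 to 15.9% of the RPKM sum in A to H and 0.635 to 10.1% in I to Z. Between 22229 and 24418 rows were above 0 in A to H libraries, against 19157 to 20759 in I to Z. Transcript length also moved with it: among genes of at most 1000 bases the log2 difference had a median of -0.89 over 48 members and -0.30 over 2688 other genes, and it was 0.37 over 926 genes above 5000 bases. The members' median transcript length was 702 bases, against 1808 over the 10891 tested genes with a length, while NDUFS1 has 2383 and NDUFV3 3126. The part of each of these in the members' difference was not tested.

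**Figure D4:**
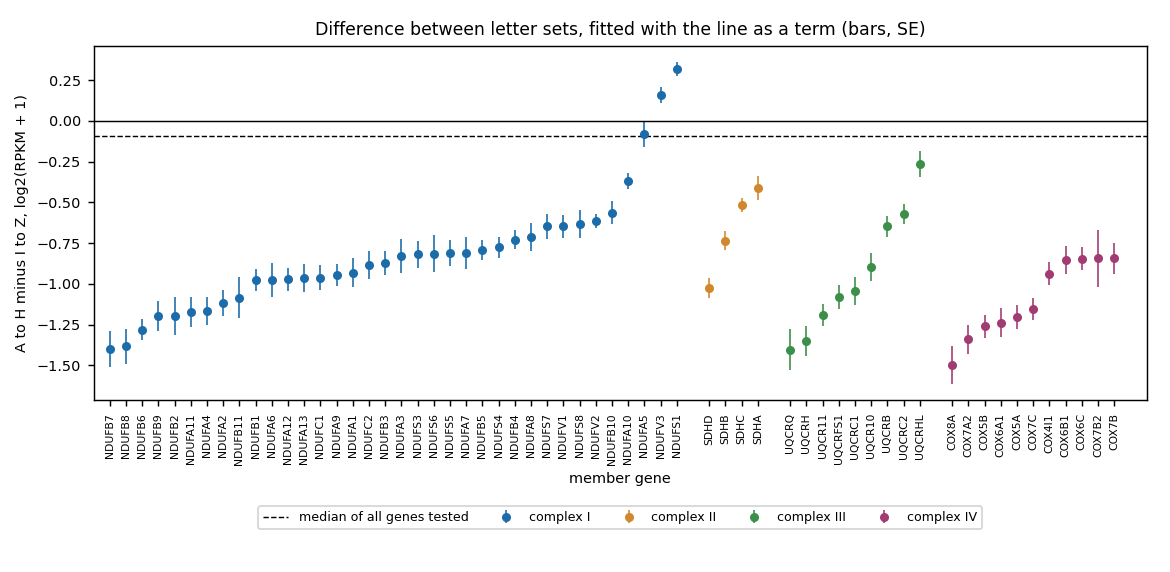
Log2 difference of A to H minus I to Z libraries for the tested members, from the fit with line and letter set, by complex, with bars of 1 SE; the dashed line is the median of all genes tested, -0.09. Almost all members lie below 0, and NDUFS1 at 0.32 and NDUFV3 at 0.16 lie above it.

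Other genes of the pathway were described from lists of complex V, further subunits and carriers, assembly factors and regulators. Between AURKA and control lines 8.85% of all tested genes were higher and 10.4% lower, the shares that apply to each list here. In complex V 1 of 18 genes was higher, ATP5J2 (log2 difference 0.61, adjusted p = 0.0248), and 0 were lower. Of the 7 tested genes on the list of further subunits and carriers NDUFAB1 was higher (0.52, adjusted p = 0.00541) and HIGD1A was lower (-0.44, adjusted p = 0.0463). NDUFAB1 is the mitochondrial acyl carrier protein and a complex I subunit outside the symbol rule. That list also held EMC8, entered by its older symbol COX4NB, which is neither a subunit nor a carrier. HIGD1A and HIGD2A, also on it, are HIG1-family proteins. Of 15 complex I assembly factors NUBPL, which delivers iron-sulfur clusters, was lower (-0.33), and none was higher. Of 27 assembly factors of complexes II to IV 4 were lower, the complex III factors LYRM7 (-0.68, adjusted p = 0.00507), BCS1L (-0.50, adjusted p = 0.00537) and TTC19 (-0.44) and the complex IV factor COX20 (-0.32), and 0 were higher. None of the 12 regulators passed in this comparison.

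Between NLS-AURKA and NES-AURKA the same lists had 4 complex V genes higher and 3 lower of 18, where 19.1% of all tested genes were higher and 14.1% lower, among them the catalytic-head subunit ATP5A1 (log2 difference 0.74) and the stalk subunit ATP5O (0.70) higher and ATP5E (-0.82) lower. Of the assembly factors of complexes II to IV 5 of 27 were higher and 6 lower; UQCC2, for complex III, differed by 0.78 and LRPPRC, which stabilises mitochondrial messages, by 0.71, while the complex IV factors PET117, COX14 and COX17 differed by -0.79, -0.69 and -0.61. In the letter sets 18 of 18 complex V genes and 7 of 7 genes on the list of further subunits and carriers were lower in A to H. So were 14 of 15 complex I assembly factors and 21 of 27 assembly factors of the other complexes, with 3 of the last list higher. Of the 12 regulators 3 were higher and 7 lower. For all these lists the shares of all tested genes were 30% higher and 43.2% lower in A to H.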

How the data were processed

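Gene expression was measured by mRNA sequencing (KAPA mRNA Hyper Prep, per the labels' protocols) in 26 libraries of 9 lines. The values are RPKM deposited by the authors in 1 table of 33562 rows; HISAT2, SAMtools, Partek and hg19 are named in the submitters' processing notes, without versions. No annotation or strand setting is named in these sources. RPKM is not a count, so log2(RPKM + 1) was tested with limma 3.58.1 in R 4.3.3, with a mean-variance trend, over the 12589 genes at 1 RPKM or more in at least 2 libraries, with Benjamini-Hochberg adjustment over all of them and a threshold of 0.05. Line means, weighting each library equally, were compared between AURKA and control lines and between constructs; library values with line and letter-set terms were compared between each clone and its control line and between letter sets. A gene was called against its control line only where both clones passed with the same sign. The scripts were tested on simulated data. Alternatives were another added value (0.1), no filter, median-ratio scaling, 1 letter set, a letter-set term and leaving out lines or libraries; those for libraries D and X, and the combination with a letter-set term, were chosen after seeing the data. Transcript lengths came from GENCODE v29, and promoter sequences from RefSeq on GRCh38.p14; gene coordinates were not carried between builds. The members and gene lists were chosen with earlier results of these data known. Members named were those called in a comparison, up to 12 in each direction by size of the difference, with the highest and lowest of each complex by level, paralogue pairs and all of complex II; from the other lists up to 3 called genes a comparison were named, apart from LYRM7, BCS1L, TTC19 and COX20, all 4 that were called. Some results, counted in the totals, are not reported here.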

Additional observations from a re-analysis of the deposited data

Results flagged for a closer look

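Among 41 members examined over the 6 AURKA lines, UQCRQ, a small subunit of complex III, had 1 line far from the rest. Its mean was 56.7 RPKM in NLS-AURKA clone 2, where the nearest of the other AURKA lines had 47.7 and the lowest 42.3; the gap was 0.629 of the whole range, just past the 95% limit of 0.625 for 6 values. Chance marks about 1 in 20 such groups. Library X of that clone had 102 RPKM, against 20.4 and 47.4 in its other libraries. WT-AURKA clone 2, the lowest line, has no A to H library. Over I to Z libraries alone, a check chosen after seeing the data, the line means were 74.8 RPKM in NLS-AURKA clone 2, 61.9 in the nearest line and 42.3 in the lowest, and the gap was 0.398 of the range, below the limit.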

How the results depend on the processing

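No paired analysis was possible because the titles give letters and no replicate numbers, so no number is shared between groups. Counts of called members beyond 1.5 times the reported ones were as follows. Between AURKA and control lines, 7 were called with no filter on low values and 1 in A to H libraries alone. The shares of all tested genes higher and lower were 2.2% and 3.56% with no filter, and 5.5% and 6.06% in A to H. In A to H libraries alone 3 were called in NLS-AURKA against NES-AURKA, 3 against WT-AURKA and 0 in NES-AURKA against WT-AURKA. The shares were then 5.98% and 1.85%, 1.51% and 1.56%, and 0% and 0%. Between NES-AURKA and WT-AURKA 3 were called with no filter, 3 in I to Z libraries and 3 with a letter-set term. There the shares were 0.542% and 0.715%, 2.03% and 2.51%, and 1.8% and 3.1%. Without the letter-set term 0 members were called in both NLS-AURKA clones, 2 in both NES-AURKA clones and 0 in both WT-AURKA clones. Leaving out lines or libraries gave 1 to 13 between AURKA and control lines (15 without library D or X and with the term), 12 to 29 in NLS-AURKA against NES-AURKA, 10 to 32 in NLS-AURKA against WT-AURKA, 0 to 28 in NES-AURKA against WT-AURKA, 6 to 16 in both NLS-AURKA clones, 7 to 14 in both NES-AURKA clones and 3 to 10 in both WT-AURKA clones. The 32 and the 28 were without library D and without the term, where WT-AURKA had no A to H library. The share of all tested genes that was called moved with these settings too. Median log2 differences moved for complex I between AURKA and control lines to -0.11 in I to Z and -0.093 with the term, and in NLS-AURKA against NES-AURKA to -0.016 with scaling. In NLS-AURKA against WT-AURKA they were 0.0064, 0.031, 0.043 and 0.17 for complexes I to IV in I to Z, and -0.042 for I and -0.00070 for III with the term. Between NES-AURKA and WT-AURKA they were -0.052, -0.16, 0.018 and -0.030 for I to IV in I to Z, -0.076, -0.19, -0.046 and -0.036 with the term, and -0.14 for I with scaling. For both WT-AURKA clones they were -0.11 for I and -0.30 for III in I to Z, for both NES-AURKA clones -0.040 for I with scaling, and for the letter sets -0.47 for II with scaling. NDUFB2 was the 1 named value that changed sign, at 0.036 for the letter-set difference between AURKA and control lines without NES-AURKA clone 1. Of the values of named members under all alternatives, 170 of 231 kept their call between AURKA and control lines, 220 of 280 in NLS-AURKA against NES-AURKA, 201 of 272 in NLS-AURKA against WT-AURKA, 47 of 84 in NES-AURKA against WT-AURKA, and 420 of 420 between letter sets. The causes of these shifts were not tested. RPKM files give no counts, so the reads behind low values such as COX7B2 in NES-AURKA clone 2 are estimates.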
